A study of Schizothorax plagiostomus with 18 samples.

Results

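A set of 251 features made up the most abundant ovary-predominant RNA of the snow trout Schizothorax plagiostomus. A feature is a transcript, or a cluster of transcripts, in the authors' count table. Members were chosen by their mean level over libraries, in CPM (the count of a feature scaled to a common library total). The mean over 9 ovary libraries had to reach 200 CPM and at least 16 times the mean over 9 testis libraries. This rule kept 251 of 135031 features (0.186%), while another 437 features reached the same level in ovaries without the ratio to testis. The difference between the gonads chose the members, so it is described below without a test.

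Ovaries of female fish were sequenced at the pre-spawning, spawning and post-spawning stages, and so were testes of male fish, with 3 libraries in each of the 6 groups. The labels also give each library a season, 1 to 3, which matches its replicate number. They name no treatment and no strain, and whether the libraries of a group are from different fish is not stated. The p-values therefore measure only the spread between these samples. Total RNA was depleted of ribosomal RNA with a kit made for mammals.

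As background, the fish ovary is filled largely by oocytes at different stages of growth, each enclosed by follicle cells. A growing oocyte stores large amounts of maternal RNA, which the egg and the early embryo use before the embryo's own genes are read. In zebrafish, egg envelope proteins and growth factors secreted by the oocyte are well-known products of oocyte RNA. Oocytes grow before spawning, ripe eggs are shed at spawning, and a new generation of oocytes follows. The files pair no feature with a gene name, so no member can be given such a role here, and the tissue labels could not be checked against marker genes. In whole ovaries, fewer cells of a type and less RNA per cell cannot be told apart.

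Library totals lay between 14604277 counts, in post-spawning ovary 1, and 52676056 counts, in post-spawning testis 3. A count of 0 allows up to 3 counts, which is 0.057 to 0.205 CPM over the libraries and covers counting error only. At least 248 members had more than 3 counts in each ovary, against 197 to 251 members in each testis. Spawning ovaries 1 and 3 and post-spawning ovary 1 stood apart from the other ovaries in the abundant features outside the set. Among the 100 most abundant ovary features, those outside the set took 16.3%, 18.7% and 11.1% of counts in these 3 libraries. In the other 6 ovaries they took 3.63% to 6.34%.

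The members took 17.9% ± 5.21 of all counts in ovaries and 0.106% ± 0.0262 in testes (SD, n = 9 each). Pre-spawning ovaries gave 19.0%, 24.0% and 21.8% to them, spawning ovaries 11.8%, 18.2% and 12.8%, and post-spawning ovaries 10.3%, 24.1% and 19.5%. The lowest shares were those of post-spawning ovary 1 and spawning ovaries 1 and 3, the same libraries in which other abundant features were high. Whether the shares are tied to each other was not tested. Pre-spawning testes gave 0.159%, 0.127% and 0.123%, spawning testes 0.105%, 0.0771% and 0.101%, and post-spawning testes 0.0857%, 0.0902% and 0.0871%. No testis came near the lowest ovary.

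**Figure D1:**
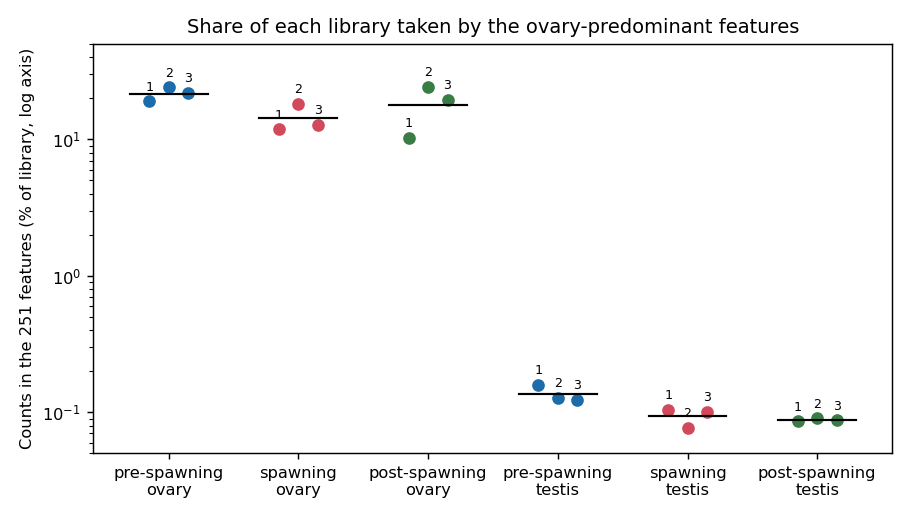
Percent of each library's counts that fell in the 251 features (vertical axis, log scale), with a point for each library, its replicate number above it and a line at the group mean. The 9 ovaries lie between 10.3% and 24.1%, and the 9 testes between 0.0771% and 0.159%.

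Among the members 43 averaged at least 1000 CPM in ovaries, 54 averaged 500 to 1000 CPM and 154 averaged 200 to 500 CPM. The median member stood at 419 CPM. The 10 highest members held 24.3% of the members' summed mean level and took 4.35% ± 1.59 of counts in ovaries (SD, n = 9). Members supplied 4 of the 10, 36 of the 50 and 105 of the 200 most abundant ovary features.

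The highest member was cluster55, a cluster of 55 transcripts. It had 6340, 11816.5 and 8915 CPM in pre-spawning ovaries, 4747, 5936 and 6498 CPM in spawning ovaries and 3564, 17949 and 9871 CPM in post-spawning ovaries. In pre-spawning testes it had 37.0, 28.1 and 48.7 CPM, in spawning testes 22.9, 16.7 and 8.74 CPM, and in post-spawning testes 17.1, 15.1 and 20.8 CPM. The ovary values spread over a 5.04-fold range that lay within a single stage, with the lowest and the highest library both post-spawning. In pre-spawning ovaries this feature alone made up 0.902% of counts on average.

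The next member, cluster70400, is a single transcript. It had 7726, 7395 and 7034 CPM in pre-spawning ovaries, 4513, 7910 and 4860 CPM in spawning ovaries and 3882, 10729 and 8558 CPM in post-spawning ovaries. Its testis mean was 8.60 ± 7.56 CPM (SD, n = 9). Pre-spawning ovaries agreed closely on this feature, while post-spawning ovary 1 was the lowest of the 9 and post-spawning ovary 2 the highest.

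The third to sixth members repeated this order of libraries, with post-spawning ovary 1 lowest and post-spawning ovary 2 highest. For cluster39704 these libraries had 2406 and 7164 CPM, around a mean of 5172 ± 1704 CPM in ovaries against 4.96 ± 6.29 CPM in testes (SD, n = 9 each). For cluster57203 they had 1938 and 8215 CPM, with means of 4815 ± 2004 and 3.45 ± 3.42 CPM. Means were 4012 ± 1274 and 4.12 ± 5.36 CPM for cluster70329, and 3164 ± 1279 and 2.13 ± 2.18 CPM for cluster36139. The testis SDs are close to or above the testis means, and in all 4 features pre-spawning testis 3 and spawning testes 2 and 3 stood above the other testes. For cluster39704 these 3 testes had 19.2, 9.18 and 8.28 CPM, against 0.487 to 2.74 CPM in the other 6.

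A different balance was seen in cluster18944, made of 2 transcripts, the next member by level. Its ovary mean was 2841 ± 736 CPM and its testis mean 23.0 ± 16.6 CPM (SD, n = 9 each), so it stood 124-fold higher in ovaries. Its values by stage are given with the testis comparisons. The remaining members among the highest 10 were cluster27622 (2809 ± 1291 CPM in ovaries, 1.61 ± 2.06 CPM in testes), cluster68769 (2732 ± 1515 and 3.54 ± 2.67 CPM) and cluster52162 (2611 ± 1298 and 2.45 ± 2.61 CPM).

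**Figure D2:**
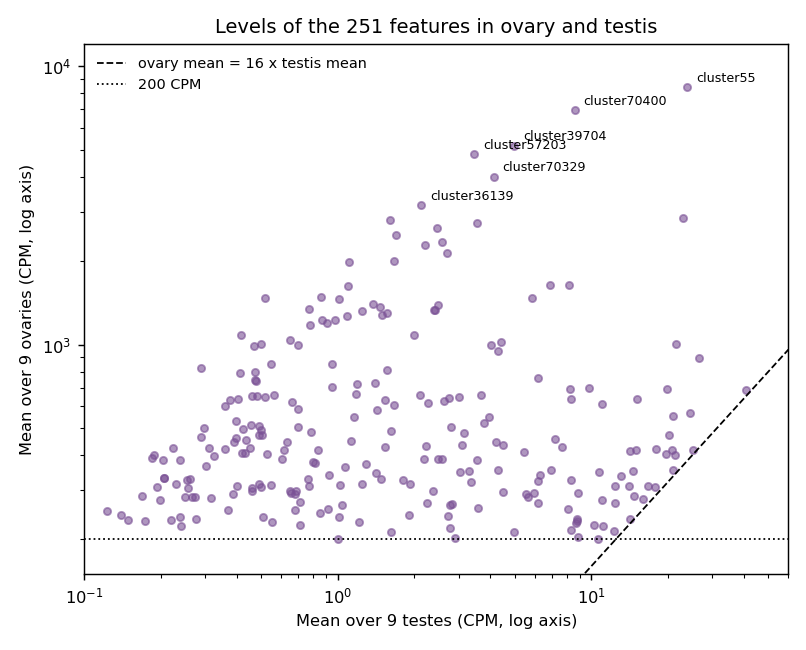
Mean CPM over 9 ovaries (vertical axis, log scale) against mean CPM over 9 testes (horizontal axis, log scale), with a point for each of the 251 features and the 6 highest named. The broken lines are the limits of the rule, 200 CPM and a ratio of 16, and cluster55 lies at 8404 CPM in ovaries and 23.9 CPM in testes.

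In testes 105 members averaged under 1 CPM, 111 averaged 1 to 10 CPM and 35 averaged at least 10 CPM, with a median of 1.42 CPM. The ratio of the ovary mean to the testis mean had a median of 439, and 75 members had a ratio of at least 1000. Each member had more than 3 counts in at least 1 testis. Whether counts this low come from cells of the testis was not tested. For 248 members every ovary stood above every testis, as it did for 11.8% of the 39950 features whose mean in a gonad reached 1 CPM. The ratio of at least 16 was also met within single stages, by 243 members before spawning (4.92% of those features), 242 at spawning (7.6%) and 245 after spawning (7.58%). The rule used this contrast, and nothing is read from these counts.

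The highest ratio belonged to cluster26779, made of 2 transcripts, at 2849. It had 1717, 1562 and 1866 CPM in pre-spawning ovaries, 1253, 1611 and 1111 CPM in spawning ovaries and 1163, 1340 and 1568 CPM in post-spawning ovaries, while its 9 testes had 0.0221 to 1.73 CPM. It was also among the steadiest members, with a coefficient of variation (SD over mean) of 17.8% over the 9 ovaries. The single transcript cluster75982 followed with a ratio of 2847. It ranged from 105 CPM in post-spawning ovary 1 to 1476 CPM in pre-spawning ovary 3, and from 0 to 0.734 CPM in testes. The third ratio, 2610, was that of cluster59807, at 567 to 1765 CPM in ovaries and 0.0329 to 1.38 CPM in testes. The testis means under these ratios were 0.51 ± 0.52, 0.29 ± 0.31 and 0.42 ± 0.51 CPM (SD, n = 9 each). With SDs above such low means, the order of the ratios is uncertain.

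At the edge of the rule, cluster64908 (201 CPM in ovaries) and cluster35306 (200.2 CPM) lay just inside the level limit, and cluster48471 (198 CPM) and cluster65360 (197 CPM) just outside it. Just inside the ratio limit lay cluster55949 (16.7) and cluster56900 (16.5), and just outside it cluster35118 (15.5) and cluster33417 (15.3). With any single library left out the rule gave 247 to 259 members, and 230 features were members whichever library was left out. Medians in place of means gave 245 members, of which 237 were shared.

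Members differed in how steady they were over the 9 ovaries. In all 9 ovaries 216 members stood at 100 CPM or more and 124 at 200 CPM or more, while 9 fell under 50 CPM in at least 1 ovary. The rule asked for a mean of 200 CPM over these same ovaries, so nothing is read from these counts. The coefficient of variation over the 9 ovaries had a median of 41.9%, against 33.0% for the 437 other features of at least 200 CPM. It was under 25% for 15 members, 25% to 50% for 172, 50% to 100% for 58 and at least 100% for 6. The steadiest was cluster72895, at 530 to 826 CPM over the 9 ovaries (mean 663 ± 107 CPM, SD, n = 9, coefficient of variation 16.2%). Next came cluster51952, at 261 to 417 CPM (327 ± 57.1 CPM, 17.4%). In testes cluster72895 averaged 1.18 ± 1.18 CPM and cluster51952 averaged 8.30 ± 3.55 CPM (SD, n = 9 each).

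The place of the 6 most variable members in the set rested on 1 or 2 libraries. The feature cluster19008 had 8502 CPM in pre-spawning ovary 1, 0.576 and 0.395 CPM in pre-spawning ovaries 2 and 3, 3.97, 0 and 0.335 CPM in spawning ovaries and 5.34, 5.49 and 10.4 CPM in post-spawning ovaries. Its relative cluster37246, whose transcript identifier has the same stem, had 2804 CPM in pre-spawning ovary 1 and 0 to 2.33 CPM in the other 8. In those 8 ovaries both features overlapped the testes, where cluster19008 had up to 13.8 CPM and cluster37246 up to 3.55 CPM. Without pre-spawning ovary 1, neither met the rule.

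The other 4 were high in post-spawning ovary 1 and spawning ovary 3. The feature cluster73156 had 1232 and 735 CPM in these 2 libraries and 0.0733 to 31.9 CPM in the other 7 ovaries, with 1.12 to 25.8 CPM in testes. It is the third member whose ovaries and testes overlapped. The feature cluster42024 had 1405 and 505 CPM in the same 2 libraries and 42.9 to 197 CPM in the other 7. The features cluster75843 and cluster37360, whose transcripts share a stem, followed the same pattern. Without post-spawning ovary 1 all 4 left the set. All 6 were picked here for their spread after their values were seen. Without them the members took 17.7% of counts in ovaries and 0.104% in testes, against 17.9% and 0.106% with them.

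The level of the median member also differed by library. In post-spawning ovary 1 the median member stood 0.69 log2 units below its own median over the 9 ovaries, in spawning ovary 1 0.42 below and in spawning ovary 3 0.34 below. In pre-spawning ovaries 2 and 3 it stood 0.38 and 0.31 log2 units above, and in post-spawning ovary 2 it stood 0.23 above. Post-spawning ovary 1, the shallowest library, was the lowest of the 9 for 114 members. Post-spawning ovary 2 was the highest for 81 members. Spawning ovaries 1 and 3 were the highest for no member. Shares over all features were not computed for these counts, so nothing particular to the members is read from them.

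**Figure D3:**
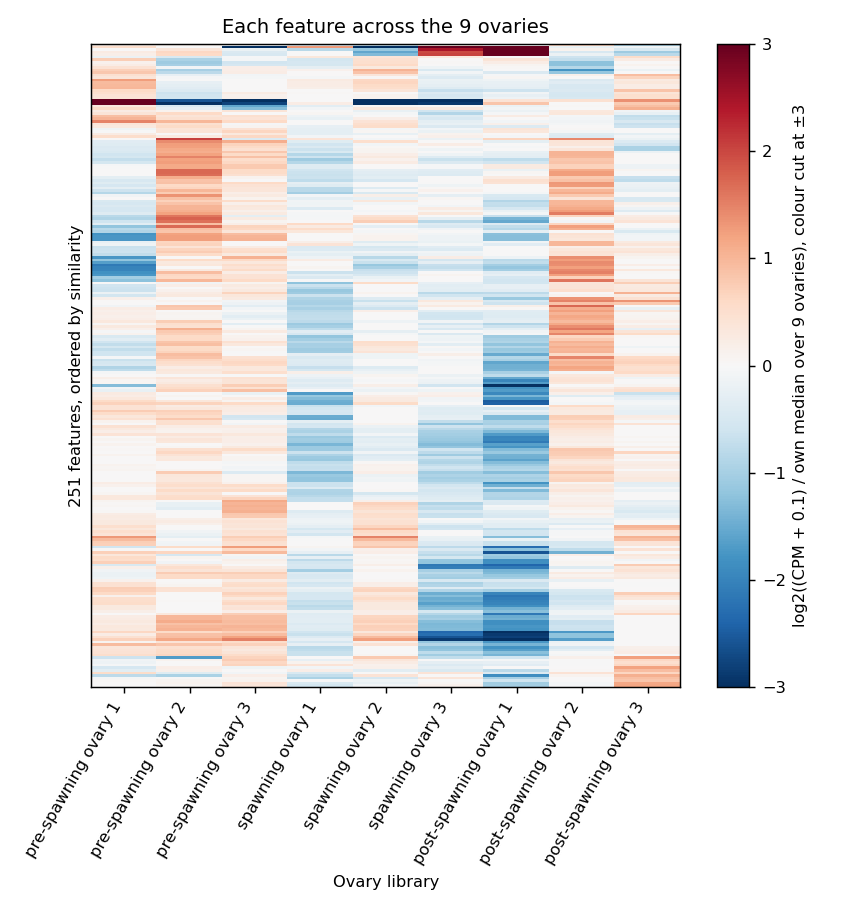
Level of each of the 251 features (rows, ordered by similarity) in each of the 9 ovary libraries (columns), as log2 of CPM plus 0.1 over the feature's own median, with red above and blue below and the colour scale ending at 3 either way. Post-spawning ovary 1 is mostly blue, with the lowest value for 114 features, and the dark red stripe in pre-spawning ovary 1 holds cluster19008 and cluster37246.

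The transcripts behind the members formed families. A transcript identifier in the map file ends in the letter t and a number, and the part before it, called the stem here, is shared by several transcripts. The files do not say whether a stem marks a gene, a set of duplicated genes or alleles. The 251 members held 482 transcripts with 248 stems. Single transcripts made up 72.9% of members and 77.3% of all features, against 35.2% of the 437 other features of at least 200 CPM. Reads of a gene may therefore be divided between members, and the level of a single member is uncertain to that extent.

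Stems joined 139 members to at least 1 other member and gave 154 families, 42 of them with several members. A family holds all members linked by a chain of shared stems, so its members need not all have a stem in common. In the largest family, cluster39704 and cluster40868 have none in common. The first 10 families held 42.6% of the members' summed mean level. The largest held 11 members, led by cluster39704 and cluster70329, and reached 15634 ± 5107 CPM in ovaries against 14.9 ± 20.4 CPM in testes (SD, n = 9 each), or 8.72% of the members' summed level. It had 18876, 17594.5 and 18078 CPM in pre-spawning ovaries, 10503.5, 18896.5 and 9187 CPM in spawning ovaries and 7327, 20644 and 19601 CPM in post-spawning ovaries. Pre-spawning ovaries differed little on this family, while the other stages each held libraries on either side of them.

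Another family, of 7 members, led by cluster27622, reached 9458 ± 3926 CPM in ovaries and 5.94 ± 7.69 CPM in testes (SD, n = 9 each). It had 12949 to 14612 CPM in pre-spawning ovaries, 4985 to 10021.5 CPM in spawning ovaries and 3629 to 11147 CPM in post-spawning ovaries. All 3 pre-spawning ovaries lay above all 6 later ovaries. Next came a family of 8 members led by cluster24851, reached 9443 ± 5446 CPM in ovaries and 19.99 ± 15.3 CPM in testes. It had 10418.5, 17046 and 16745 CPM in pre-spawning ovaries, 6667, 13830.5 and 3473 CPM in spawning ovaries and 2532, 5680 and 8596 CPM in post-spawning ovaries. Every post-spawning ovary lay below every pre-spawning ovary, and the spawning ovaries overlapped with both. Families are described here for their level, and their summed values were not tested between stages. Nothing on stage is read from these orders.

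**Figure D4:**
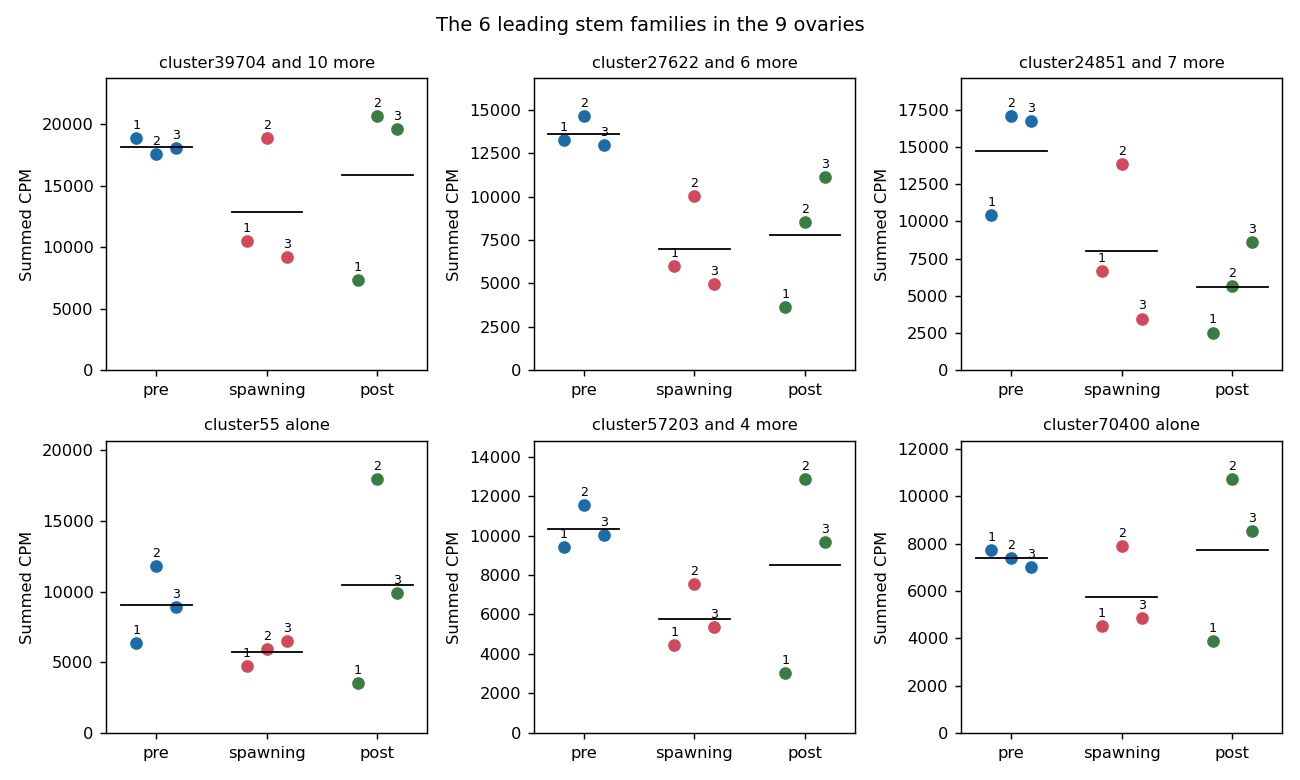
Summed CPM (vertical axes) of the members of the 6 leading stem families in the 9 ovaries by stage, with a point for each library, its replicate number above it and a line at the stage mean. Post-spawning ovary 1 is the lowest of the 9 libraries in each panel, and in the panel of cluster39704 and 10 more it stands at 7327 CPM against 20644 CPM in post-spawning ovary 2.

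Members with a common stem mostly rose and fell together over the ovaries. Pearson's correlation of log2(CPM + 0.1) over the 9 ovaries had a median of 0.924 over the 229 pairs of members with a common stem, and 58.5% of these pairs reached 0.9. Over all 31375 pairs of members the median was 0.433, while 3.76% reached 0.9 and 18.4% were below 0. Not all pairs with a common stem were alike, since the lowest correlation among them was 0.166. The points share their libraries and depth, and reads may be divided between near-identical transcripts, so no p is given. The largest set of members linked by pairs of at least 0.99 held 9 members, namely the 8 of the cluster24851 family and cluster63630, whose transcript has another stem.

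The families reached beyond the set. Another 365 features shared a stem with a member, and 318 of them reached a mean of 1 CPM in a gonad. Of these, 282 (88.7%) also stood at least 16 times higher in ovaries than in testes, against 4.94% of all 39699 features outside the set at that level. The median ovary mean of all 318 was 32.01 CPM. A further 17 had a testis mean at or above the ovary mean. The rule used this same contrast in the same libraries, and reads may be divided between near-identical transcripts. Nothing is read from these shares.

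The stages within ovaries did not enter the rule and were tested with edgeR over 42501 features, among which all 251 members passed the filter on low counts. The 3 stage comparisons share libraries, so they are not independent of each other. By stage mean, 178 members were highest before spawning, 5 at spawning and 68 after spawning, and 168 were lowest at spawning. The highest stage mean exceeded the lowest by a median factor of 1.63. For 36 members the factor reached 2. These counts by stage mean have no share over all features beside them, so nothing particular to the members is read from them.

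At spawning most members had lower values than before spawning, and none passed the threshold. The median log2 fold change of spawning over pre-spawning ovaries was -0.59 for the members and -0.03 for all features, and 13 of 251 members were above 0. It was -0.18 for the 437 other features of at least 200 CPM, of which 120 (27.5%) were above 0. No member was called at an adjusted p under 0.05, nor was any of the 42501 features (0.0% in either direction), and the smallest adjusted p of a member was 0.868. DESeq2 also called no member, and 89 features in all. At an unadjusted p under 0.05 there were 17 members (6.77%) lower at spawning, against 2.54% of all features, and none higher, against 2.39%.

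All 3 spawning ovaries lay below all 3 pre-spawning ovaries for 52 members (20.7%), against 5.1% of all features, and above them for 1 member, against 7.52%. With TMM scaling the counts were 80 below, against 7.71% of all features, and 1 above, against 5.47%. Members with a common stem mostly varied together, so members counted here and in the comparisons below are not independent. Such shares were not computed for the 437 other features of at least 200 CPM. With season as a block 43 members, all lower, had an unadjusted p under 0.05, against 4.56% of all features in either direction, and no member passed the adjusted threshold. In a fit with no block and without post-spawning ovary 1, 62 members had an unadjusted p under 0.05, with 61 lower, against 8.83% of all features. That library is in neither group compared, and enters the fit only through the filter, the scaling and the estimated spread. The same count is not given here for the other left-out libraries, so nothing is read from it. The median stayed between -0.76 and -0.42 with each library left out. In spawning ovaries 1 and 3, abundant features outside the set took 16.3% and 18.7% of counts, against 4.28% in spawning ovary 2 and 3.63% to 6.34% in pre-spawning ovaries. Their part in the lower values was not tested.

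The smallest p among lower members was that of cluster59169. It had 233, 307 and 189 CPM in spawning ovaries, against 648, 464 and 354 CPM in pre-spawning ovaries (log2 fold change -1.10, SE 0.36, edgeR unadjusted p = 0.0107, adjusted p = 0.868). The groups did not overlap. The next was cluster19008 with a log2 fold change of -11.01 (SE 3.55, adjusted p = 0.868), which rests on pre-spawning ovary 1 and was 1.42 without it. Among members with higher values the smallest p belonged to cluster73156 (4.70, SE 2.53, adjusted p = 0.868), which rests on spawning ovary 3, and to cluster7727. In cluster7727, levels were 374, 385 and 354 CPM in spawning ovaries, against 263, 216 and 289 CPM in pre-spawning ovaries (log2 fold change 0.47, SE 0.32, adjusted p = 0.868). It is the 1 member whose spawning ovaries all lay above the pre-spawning ovaries.

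After spawning most members had higher values than at spawning, with a large spread between libraries. The median log2 fold change of post-spawning over spawning ovaries was 0.51 for the members, 0.04 for all features and 0.34 for the 437 other abundant features. Values above 0 were seen in 206 of 251 members and in 343 (78.5%) of the 437 others, so higher values were not particular to the members. With edgeR no member and no feature was called (0.0% in either direction), and the smallest adjusted p of a member was 0.647. DESeq2 called no member, and 440 of 42501 features in all (1.04%). At an unadjusted p under 0.05 there were 4 members higher, against 4.08% of all features, and none lower, against 3.06%. All post-spawning ovaries lay above all spawning ovaries for 9 members (3.59%), against 3.64% of all features, and below them for none, against 5.0%.

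Single libraries set the size of this difference. Without post-spawning ovary 2 the median was 0.05, with 138 members above 0, and without post-spawning ovary 1 it was 0.75. In the fit without post-spawning ovary 1, 72 members had an unadjusted p under 0.05, against 15.0% of all features. That count is not given here for the other left-out libraries, so nothing is read from it. With total counts as the only scaling the median was 0.27, where that of all features was -0.11. The smallest p among higher members belonged to cluster65699, with 214, 614 and 332 CPM in post-spawning ovaries, against 157, 215 and 165 CPM in spawning ovaries (log2 fold change 1.37, SE 0.49, adjusted p = 0.647). These ranges touched, as post-spawning ovary 1 lay at the level of spawning ovary 2. Next was cluster20376, with 160.5, 624 and 564 CPM in post-spawning ovaries, against 113, 141 and 276 CPM in spawning ovaries (1.5, SE 0.60, adjusted p = 0.669). Among members with lower values, cluster66988 had a log2 fold change of -0.63 (SE 0.42, adjusted p = 0.795) and cluster58579 one of -0.70 (SE 0.51, adjusted p = 0.805), and their groups overlapped.

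Between post-spawning and pre-spawning ovaries the members were divided. The median log2 fold change was -0.17 for the members, 0.05 for all features and 0.18 for the 437 other abundant features. Values above 0 were seen in 104 of 251 members and in 283 (64.8%) of the 437 others. With edgeR no member and no feature was called (0.0% in either direction), and the smallest adjusted p of a member was 0.530. DESeq2 called no member, and 434 of 42501 features in all (1.02%). At an unadjusted p under 0.05 there were 11 members lower, against 4.81% of all features, and none higher, against 4.45%. All post-spawning ovaries lay below all pre-spawning ovaries for 37 members (14.7%), against 9.25% of all features, and above them for none, against 4.86%. The sign of the median rested on single libraries, as it was 0.09 without post-spawning ovary 1, 0.01 without pre-spawning ovary 2 and -0.55 without post-spawning ovary 2.

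The smallest p again belonged to cluster59169, with 220.5, 216 and 166 CPM in post-spawning ovaries, against 648, 464 and 354 CPM in pre-spawning ovaries (log2 fold change -1.17, SE 0.36, adjusted p = 0.530). The second was cluster202, made of 35 transcripts, with 49.9, 110.4 and 300.2 CPM in post-spawning ovaries, against 496, 466 and 582 CPM in pre-spawning ovaries (-1.69, SE 0.54, adjusted p = 0.530). In both features the groups did not overlap. Among members with higher values the smallest p belonged to cluster73156 (5.26, SE 2.60, adjusted p = 0.548), which rests on post-spawning ovary 1, and to cluster20376. For that feature the pre-spawning ovaries had 223, 241 and 210.1 CPM, inside the range of the post-spawning ovaries given above (1.14, SE 0.59, adjusted p = 0.559).

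**Figure D5:**
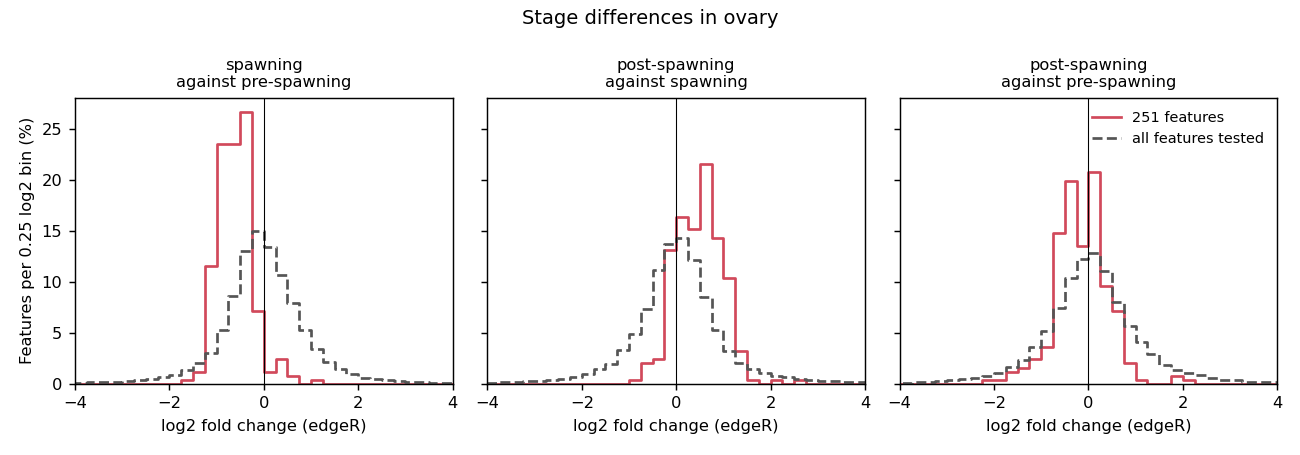
Distribution of log2 fold changes (edgeR, horizontal axis) of the 251 features (solid line) and of all 42501 features tested (broken line) in the 3 ovary stage comparisons, as percent of features per bin of 0.25 log2 units. Values beyond 4 either way, such as those of cluster19008 and cluster73156, fall outside the panels, and the medians of the 251 features are -0.59, 0.51 and -0.17 from left to right.

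The share of counts in the members followed the same order of seasons at each stage. Members took 13.7% of counts on average in season 1 ovaries, 22.1% in season 2 and 18.02% in season 3, and the order 2, 3, 1 from high to low held at all 3 stages. For 55 members (21.9%) the season 2 library was the highest at each of the 3 stages, against 4.24% of all features tested. For 58 members (23.1%) the season 1 library was the lowest at each stage, against 4.9%, and 26 members (10.4%) did both, against 1.11%. These counts use CPM scaled to library totals, and were not repeated with TMM scaling. A stem joined 139 of the members to another, and such members mostly rose and fell together. The members counted are therefore not independent, and may largely repeat the order of the shares. In a fit with stage and season no member and no feature was called for season (0.0%), with a smallest adjusted p of 0.920 among members. At an unadjusted p under 0.05 there were 39 members (15.5%), against 5.29% of all features. DESeq2 called 3 members (1.2%), against 0.692% of all features. Season 1 also holds the shallow post-spawning ovary 1 and 2 of the 3 libraries in which other abundant features were high. Their part in the season order was not tested.

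The 2 members of smallest p for season were cluster38014 and cluster32598. In seasons 1, 2 and 3 cluster38014 had 182, 562 and 378 CPM in pre-spawning ovaries, 152, 422 and 242 CPM in spawning ovaries and 133, 579.5 and 302.5 CPM in post-spawning ovaries (edgeR unadjusted p = 0.00162, adjusted p = 0.920). For cluster32598 they were 653, 2469 and 1536 CPM, 507, 1167 and 670 CPM, and 634, 1862 and 1068 CPM (unadjusted p = 0.00336, adjusted p = 0.920). In each the order of seasons was the same at all 3 stages.

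In testes the members were scarce, and 237 of 251 passed the filter on low counts over the 9 testes, while 14 were not tested. Spawning testes gave 2 called members, both lower than in pre-spawning testes (edgeR, 51080 features tested), where 2.21% of all features were lower and 1.83% higher. The median log2 fold change was -0.07 for the members and 0.03 for all features. With each testis left out the members' median ran from -0.45 to 0.26, so its sign rested on single libraries. At an unadjusted p under 0.05 there were 24 members, against 28.4% of all features. Fold changes from the main fits use TMM scaling, while CPM are scaled to library totals. They can therefore differ from ratios of the printed CPM, here and in the other comparisons. The first called member was cluster18944, with 7.32, 8.42 and 11.6 CPM in spawning testes, against 54.0, 45.0 and 29.9 CPM in pre-spawning testes. Its log2 fold change was -1.65 (SE 0.30, edgeR adjusted p = 0.0387, lower in 3 of 3 libraries). In ovaries the same feature had 1679, 2522 and 2253 CPM at spawning, against 3583, 3160 and 3266 CPM before spawning. The second was cluster5042, made of 7 transcripts, with 4.74, 4.41 and 5.47 CPM in spawning testes, against 29.1, 19.0 and 15.7 CPM in pre-spawning testes (log2 fold change -1.53, SE 0.29, adjusted p = 0.0387). With season as a block neither passed, at adjusted p = 0.0649 for cluster18944 and 0.0671 for cluster5042, and their log2 fold changes were -1.66 and -1.52. That fit called 0 of all 51080 features, against 2065 without the block. Over all alternatives the adjusted p ranged from 8.88e-05 to 0.13 for cluster18944 and from 3.82e-05 to 0.13 for cluster5042. With libraries left out in turn, 4 members were called without pre-spawning testis 1 (1.63%, against 14.7% of all features), 10 without spawning testis 1 (4.05%, against 6.33%) and 0 without any of the other 7 testes (0% to 0.851%).

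After spawning, 4 members differed from their level in pre-spawning testes, where 3.18% of all features were higher and 2.97% lower. The median log2 fold change was -0.78 for the members and -0.19 for all features. With each testis left out the members' median ran from -0.93 to -0.32. At an unadjusted p under 0.05 there were 58 members, against 31.2% of all features. The features cluster5042 and cluster74166 were lower. In post-spawning testes cluster5042 had 3.85, 5.52 and 4.95 CPM, against the pre-spawning values above (log2 fold change -1.57, SE 0.29, adjusted p = 0.0296). For cluster74166 post-spawning testes had 3.597, 5.33 and 4.29 CPM, against 12.8, 22.3 and 18.6 CPM in pre-spawning testes (-1.48, SE 0.37, adjusted p = 0.0485).

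The 2 higher members were those with a single high ovary. For cluster19008 post-spawning testes had 4.55, 11.7 and 13.8 CPM, against 1.74, 1.91 and 0.324 CPM in pre-spawning testes (log2 fold change 3.47, SE 0.71, adjusted p = 0.0339). For cluster37246 they had 0.809, 2.73 and 3.55 CPM, against 0.366, 0.592 and 0.122 CPM (3.23, SE 0.75, adjusted p = 0.0429). Its 0.122 CPM, in pre-spawning testis 3, is only 3 counts. These 2 features share a stem, so they need not be separate results. With season as a block cluster5042 passed at adjusted p = 0.0497, and cluster19008 (0.0521), cluster37246 (0.0566) and cluster74166 (0.0549) did not. That fit called 2 members, 1 higher and 1 lower, against 1.4% of all features higher and 1.16% lower. The higher one was cluster74696, named after its values were seen, at adjusted p = 0.0476 with the block and 0.057 without it. Over all alternatives the adjusted p ranged from 3.06e-08 to 0.314 for cluster19008, from 0.000192 to 0.353 for cluster37246, from 1.67e-05 to 0.159 for cluster5042 and from 0.00875 to 0.195 for cluster74166. Left-out libraries gave 20 called members without pre-spawning testis 1 (8.13%, against 17.7% of all features) and 12 without spawning testis 1 (4.86%, against 11.7%). They gave 5 and 4 without spawning testes 2 and 3 (2.1% and 1.63%, against 6.97% and 6.67%), and 0 without any of the other 5 testes (0.00372% to 0.276% of all features).

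Between post-spawning and spawning testes no member was called by edgeR (0.0176% of all features in each direction), 64 members had an unadjusted p under 0.05, against 15.9% of all features, and DESeq2 called 25 (10.5%), against 5.28% of all features. Without spawning testis 1, edgeR called 2 members (0.81%), against 0.325%. The median log2 fold change was -0.71 for the members and -0.12 for all features. With each testis left out the members' median ran from -0.97 to -0.46. In testes the scaling moved the median of all features. With total counts as the only scaling the median of all features was -0.54 for spawning and -0.78 for post-spawning over pre-spawning testes, and 12 members (5.06%, against 13.3% of all features) and 35 members (14.8%, against 19.1%) were called. The members' own medians were then -0.66 and -1.35, which differ from those of all features by -0.12 and -0.58.

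Whether the stage change differed between ovary and testis was tested over all 18 libraries, with 53536 features and all 251 members. No member was called for spawning over pre-spawning (0.0112% of all features lower in ovary relative to testis, 0.00374% higher), for post-spawning over spawning (0.00187% and 0.00747%) or for post-spawning over pre-spawning (0.136% each way). DESeq2 called 7 members for the first (2.79%, against 2.56% of all features), 26 for the second (10.4%, against 2.52%) and 3 for the third (1.2%, against 3.47%). At an unadjusted p under 0.05 there were 27 members for the first difference, against 14.3% of all features, 81 for the second, against 12.8%, and 43 for the third, against 15.0%. The median difference of log2 fold changes, ovary minus testis, was -0.51, 1.02 and 0.66 for the members and 0.08, 0.12 and 0.23 for all features. With total counts as the only scaling the first of these medians turned to 0.15, while that of all features was 0.69. With each library left out the members' medians ran from -0.91 to -0.04, from 0.71 to 1.26 and from 0.24 to 0.93. The first was -0.91 without pre-spawning testis 3 and -0.04 without spawning testis 2, so its size rested on single testes.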

How the data were processed

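RNA was sequenced from 9 ovary and 9 testis libraries. The authors deposited whole-number counts per feature and a map from transcripts to features. The tools fastp and Salmon are named in the submitters' processing notes. How the transcriptome and its clusters were made, and whether values were rounded, is not given in the sources used here. Salmon estimates fractional counts, so the deposited counts may be rounded.

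CPM, means, SDs, shares and Pearson correlations were computed here with Python 3.11.15, pandas 2.3.3 and NumPy 2.4.6. The main test was edgeR 4.0.16's quasi-likelihood F-test on counts (robust=FALSE) in R 4.3.3 with TMM scaling, filterByExpr on group and Benjamini-Hochberg adjustment over all features tested, threshold 0.05. Stages were fitted on the 9 libraries of a gonad, season with stage as a covariate, and gonad differences on all 18 libraries. SEs were derived from the F statistic. Alternatives were RLE or total-count scaling, no low-count filter, DESeq2 1.42.0, season as a block, each library left out and other limits of the rule. The fits were also run on simulated data with known changes, and the share of those changes that was recovered is not reported here.

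The members and lists were chosen with earlier results of these data known. Features were named by level, ratio, spread, number of transcripts, distance from the limits of the rule, and smallest p in each direction. The remaining members of high spread were named after their values were seen. Marker lists could not be applied without gene names.

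The labels mark season as a batch that same-numbered libraries share, so season pairs the samples. Deviations from group means correlated weakly, with a mean r of 0.0253 within and -0.0128 between seasons in ovaries and of 0.0581 and -0.0287 in testes (36205 features). Libraries of a group differed beyond sampling noise in every pair (chi-square over degrees of freedom at least 23.6, features with 20 counts or more), so all 18 were kept. Ovary fits had a common biological coefficient of variation, over all features tested, of 64.3%, and testis fits one of 57.1%.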

Additional observations from a re-analysis of the deposited data

How the results depend on the processing

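With season as a block, which the shared numbers pair, 0 members were called in each ovary comparison, 0 for spawning and 2 for post-spawning over pre-spawning testes, and it changed no other count. Without the low-count filter, counts of called members were 3, 2 and 10 in ovaries (spawning over pre-spawning, post-spawning over spawning, post-spawning over pre-spawning), 19, 46 and 56 in testes, 22, 84 and 54 for differences between gonads and 20 for season. These were 1.2%, 0.797% and 3.98% of members in ovaries, against 1.38%, 1.74% and 2.14% of all features, and 7.57%, 18.3% and 22.3% in testes, against 6.78%, 3.02% and 7.5%. They were 8.76%, 33.5% and 21.5% between gonads, against 1.69%, 1.95% and 2.23%, and 7.97% for season, against 1.49%. Between gonads that fit tested 132790 features, against 53536 with the filter, and the added features are those of low counts. Its shares over all features are therefore no like background for abundant members. It also called cluster19008 for spawning over pre-spawning ovaries (edgeR adjusted p = 3.8e-46), which rests on pre-spawning ovary 1. Nothing is read from these shares. DESeq2 gave 14, 25 and 42 in testes (5.91%, 10.5% and 17.7% of members tested, against 19.1%, 5.28% and 22.0% of all features), 7, 26 and 3 between gonads and 3 for season. Total counts as the only scaling gave 12 for spawning and 35 for post-spawning over pre-spawning testes. With each library left out, counts were 0 in ovaries, and in testes 0 to 10, 0 to 2 and 0 to 20. The highest were 10 and 2 without spawning testis 1 and 20 without pre-spawning testis 1. The log2 fold change of cluster19008 for spawning over pre-spawning ovaries ranged from -13.80 to 1.42 with each library left out and turned positive only without pre-spawning ovary 1. The rule gave 458 members at 100 CPM and 136 at 400 CPM. The cause of these changes was not tested. The fits with a library left out also held fewer libraries.

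Levels under the limit that 3 counts allow, as for some members in testes, carry no order between libraries. The number of 3 ovaries a stage limits what the tests can show. The biological coefficient of variation of 64.3% is a common value over all features in the ovary fit, not that of the members. Over the 9 ovaries, stages included, the members' coefficient of variation had a median of 41.9%. The part of either spread in the lack of called members was not tested. Features carry no gene names, so no member is tied here to an ovarian cell type.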
